A study of Mus musculus with 6 samples.

Results

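The genes described here are 10 regulators of alternative splicing whose activity differs between tissues, namely *Rbm4*, *Rbm4b*, *Mbnl1*, *Mbnl2*, *Mbnl3*, *Celf1*, *Celf2*, *Rbfox2*, *Qk* and *Khdrbs1*. They were taken by symbol from a table of 52089 symbols and 168021 lines, each line a transcript accession (RefSeq, Ensembl or GenBank clone) with its RPKM, a read count scaled to the length of the transcript and the number of mapped reads. The 10 symbols held 173 lines. The cells were primary brite adipocytes, grown from preadipocytes of the stromal-vascular fraction of the inguinal fat of 129SvEv mice, with 2 days of induction and 1 day of differentiation in the presence of rosiglitazone. *Ctcflos*, a nuclear long noncoding RNA, was knocked down in 3 libraries with 50 nM of ASO1, an LNA gapmer (an antisense oligonucleotide that has its target RNA cut by RNase H), and 3 control libraries received a nontargeting gapmer. RNA was collected 24 h after transfection. The comparison asks whether the regulators that could act on splicing in these cells themselves differed in level, or in the make-up of their transcripts, after *Ctcflos* KD.

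Alternative splicing joins different exons of the same primary transcript. RNA-binding proteins of this kind bind short motifs in or beside an exon and promote or prevent its inclusion, often according to the side of the exon on which they sit. MBNL and CELF proteins act against each other on many exons of the developing heart and skeletal muscle, RBFOX2 binds GCAUG motifs, QKI and Sam68 (the product of *Khdrbs1*) belong to the STAR family, and RBM4 proteins are known for exon choice in muscle and fat cell differentiation.

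*Ctcflos* itself, listed as 1300015D01Rik, had 0.0969, 0.0705 and 0.210 RPKM in KD replicates 1 to 3 and 0.748, 0.751 and 0.840 RPKM in the controls, so that the mean was at 16.1% of the control mean (p = 0.1 in an exact permutation test, two-sided, below which 3 libraries a group cannot go). The mapped reads recovered from the steps of low RPKM values numbered between 60772688 and 79242802 per library. The 6 adipocyte markers summed to 3948-5304 RPKM after KD and 5602-6229 RPKM in the controls, and the 6 brite markers, *Ucp1* among them, to 61.9-81.6 and 109-166 RPKM. Of the brite markers, 5 passed the filter described below and 3 of these were called lower. *Dio2*, which was under the filter, went the other way, at 0.293-0.589 RPKM after KD and 0.128-0.256 RPKM in the controls. Summed levels were 179-399 and 275-449 RPKM for 6 progenitor markers, 0.265-0.311 and 0.468-0.544 for 6 muscle markers, 1.63-2.40 and 1.41-1.80 for 6 neural markers, and 2.72-4.75 and 1.55-2.96 for 6 blood and endothelial markers. Most of the adipocyte sum was *Fabp4*, at 2829-3574 and 3682-4243 RPKM. Of the 6 adipocyte markers, limma called *Cebpa* alone, as lower (log2 fold change -0.89 ± 0.25 SE, adjusted p = 0.0381). Most of the muscle sum was *Des*, at 0.238-0.291 and 0.441-0.523 RPKM, and most of the neural sum *Tubb3*, at 0.958-1.90 and 0.762-1.18 RPKM. Most of the progenitor sum was *Ly6a*, at 152-374 and 243-413 RPKM. Of the 4 progenitor markers that passed the filter, *Pdgfra* was called lower by limma (log2 fold change -0.69 ± 0.12 SE, adjusted p = 0.0104) and 3 were not called. *Myod1*, *Rbfox3* and *Cd3e* were listed at 0 in every library and *Ptprc* did not exceed 0.0486 RPKM. *Cd68*, a macrophage marker, was higher after KD (log2 fold change 1.05 ± 0.25 SE, adjusted p = 0.0230), and was the only gene of its list that passed the filter. The others of that list did not exceed 0.475 RPKM in any library, and *Ptprc* and *Pecam1* were lower in every KD library than in every control, with *Adgre1*, a further macrophage marker listed as Emr1, at 0.0199, 0.0267 and 0.138 RPKM after KD and 0.0842, 0.345 and 0.0827 RPKM in the controls. In bulk RNA, fewer cells of a type and less RNA per cell cannot be told apart, and the part of these markers in the results below was not tested.

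The sequences of both *Rbm4* genes are given first because they limit how far their values can be separated. *Rbm4* (ENSMUSG00000094936) lies at chr19:4784293-4793901 on the minus strand of GRCm38 and *Rbm4b* (ENSMUSG00000033760) at chr19:4756497-4767065 on the plus strand, 17.2 kb apart. In the Gencode vM21 transcripts their coding sequences, 1083 and 1071 bases long without the stop codon, were identical at 86.1% of 1071 aligned bases, and bases 1 to 425 were identical throughout. Of the 934 stretches of 150 bases, the length of a read, in the *Rbm4* coding sequence, 276 (29.6%) also occur in *Rbm4b*. Over the whole *Rbm4* transcript, to which RPKM refers, it was 277 of 2461 stretches (11.3%). Coding bases 366 to 485 cross the end of the identical bases 1 to 425, and across an intron they cover chr19:4787970-4792444 in *Rbm4* and chr19:4757623-4762049 in *Rbm4b*. Capitals mark the 10 bases that differ.
Rbm4: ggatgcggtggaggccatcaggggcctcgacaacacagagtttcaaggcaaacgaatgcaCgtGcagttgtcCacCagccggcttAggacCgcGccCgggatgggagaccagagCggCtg
Rbm4b: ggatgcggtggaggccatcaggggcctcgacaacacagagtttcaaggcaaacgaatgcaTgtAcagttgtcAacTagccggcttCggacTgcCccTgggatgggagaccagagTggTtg

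The coding ends of *Qk* are shown because the coding sequences of its RefSeq lines differ only there. Each RPKM is that of a whole line, shared bases included. The 3 RefSeq lines of *Qk* share coding bases 1 to 934 and encode 341 (NM_001159517, QKI-5), 319 (NM_001159516, QKI-6) and 325 (NM_021881, QKI-7) amino acids. QKI-5 carries a nuclear localization signal in its own end, whereas QKI-6 and QKI-7 lack it. The ends lie on the minus strand of GRCm38 at chr17:10209618-10213433 for QKI-5, where they cross 1 intron, at chr17:10214172-10214194 for QKI-6 and at chr17:10215434-10215474 for QKI-7. Lower-case letters are the last 12 shared coding bases and capitals the isoform's own coding end, without the stop codon.
QKI-5: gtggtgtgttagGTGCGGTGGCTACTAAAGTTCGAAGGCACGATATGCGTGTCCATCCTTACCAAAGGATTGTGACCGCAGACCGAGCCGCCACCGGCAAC
QKI-6: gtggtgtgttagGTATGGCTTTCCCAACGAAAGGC
QKI-7: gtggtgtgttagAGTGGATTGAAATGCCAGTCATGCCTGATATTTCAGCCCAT

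*Mbnl2*, *Celf1*, *Celf2* and *Rbfox2* were lower after *Ctcflos* KD, at 52.7%, 66.8%, 53.5% and 64.8% of the control mean. No member was called higher, and *Rbm4*, *Rbm4b*, *Mbnl1*, *Mbnl3*, *Qk* and *Khdrbs1* did not pass the test. Gene levels are the mean RPKM over all lines of a symbol, log2 fold changes are KD minus control of log2(RPKM + 1), which understates the change of low genes, and adjusted p-values come from limma over all 11701 genes with a mean of at least 1 RPKM, a filter that all 10 members passed. Of these genes, 12.4% were called lower and 11.5% higher at an adjusted p under 0.05 (24% in all), against 4 and 0 of the 10 members. The median log2 fold change was -0.31 over the members and 0.03 over all genes tested. Every KD library lay below every control for 4 members, where 21.9% of all genes did so, and above every control for 1 member, *Rbm4b*, where 22.9% did.

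**Figure D1:**
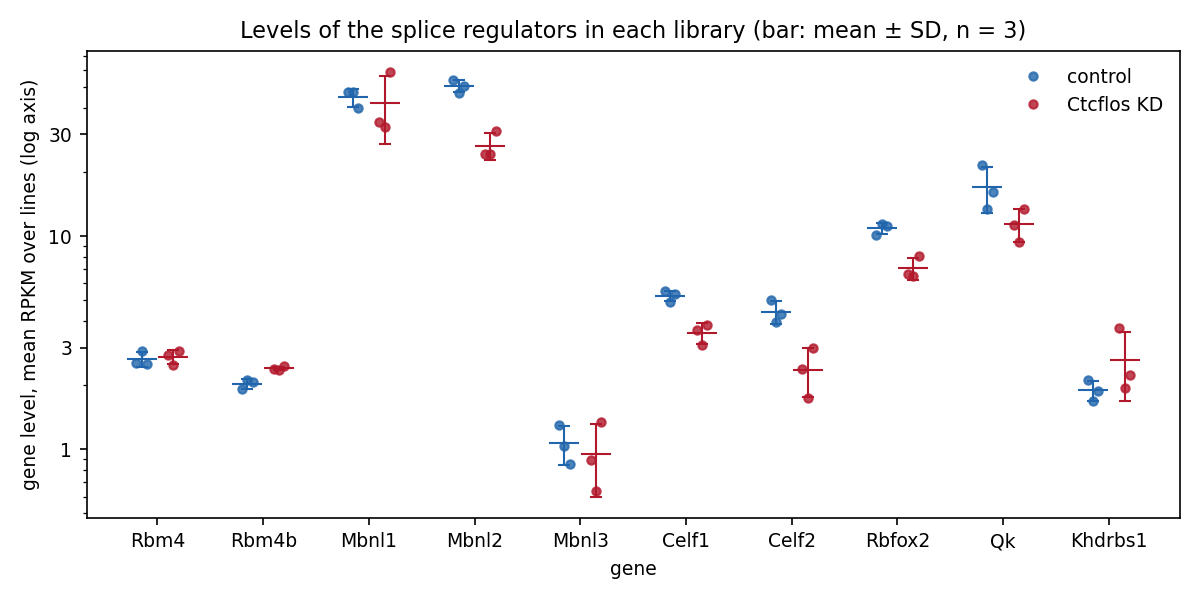
Gene level (mean RPKM over the lines of a gene, log axis) of the 10 splice regulators in the 3 control (blue) and 3 *Ctcflos* KD (red) libraries. Points are libraries, bars the mean and SD. The groups are apart for *Mbnl2*, *Celf1*, *Celf2* and *Rbfox2*, with KD lower, and for *Rbm4b*, with KD higher, and they overlap for the other 5 genes.

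MBNL proteins are zinc finger proteins that take part in the change from fetal to adult splicing. *Mbnl2* (chr14:120275669-120431697, plus strand) had 24.4, 24.3 and 31.1 RPKM after KD and 53.8, 47.2 and 50.7 RPKM in the controls. All KD libraries were far below all controls, with a log2 fold change of -0.91 ± 0.14 (SE, adjusted p = 0.00719), and *Mbnl2* was the only member called under each of the 12 alternatives tried, with adjusted p-values of 0.00094 to 0.047. *Mbnl1* (chr3:60472830-60629750, plus strand) had 34.3, 32.5 and 58.9 RPKM after KD and 47.2, 47.4 and 39.8 RPKM in the controls. KD replicates 1 and 2 were below every control and KD replicate 3 above every control, and the log2 fold change was -0.14 ± 0.22 (adjusted p = 0.665). Without KD replicate 3, *Mbnl1* was called lower, at -0.41 (adjusted p = 0.0402). *Mbnl3* (chrX:51117269-51206532, minus strand) was near the filter in all libraries, at 0.887, 0.639 and 1.34 RPKM after KD and 1.30, 1.04 and 0.857 RPKM in the controls, with a log2 fold change of -0.09 ± 0.15 (adjusted p = 0.679).

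The RefSeq lines give the level per length of each protein-coding gene and allow the family to be summed. In the controls, *Mbnl1* had 59.4 ± 5.92 and *Mbnl2* 57.6 ± 7.51 RPKM (SD, n = 3), and their ranges overlapped. After KD, the means were 55.7 ± 19.8 and 29.4 ± 5.22 RPKM. The sum over the 3 *Mbnl* genes was 72.4, 70.6 and 116 RPKM after KD and 131, 115 and 109 RPKM in the controls, so the sums overlapped. *Mbnl2* made up 36.5%, 37.4% and 30.7% of the sum after KD and 50.5%, 44.6% and 50.7% in the controls, whereas *Mbnl1* made up 63.9% ± 3.54 of it after KD and 50.3% ± 3.43 in the controls (SD, n = 3). The part of *Mbnl2* was lowest in KD replicate 3, the library with the highest *Mbnl1* level, and no KD library reached a control. These parts are given as a description, without a test.

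**Figure D2:**
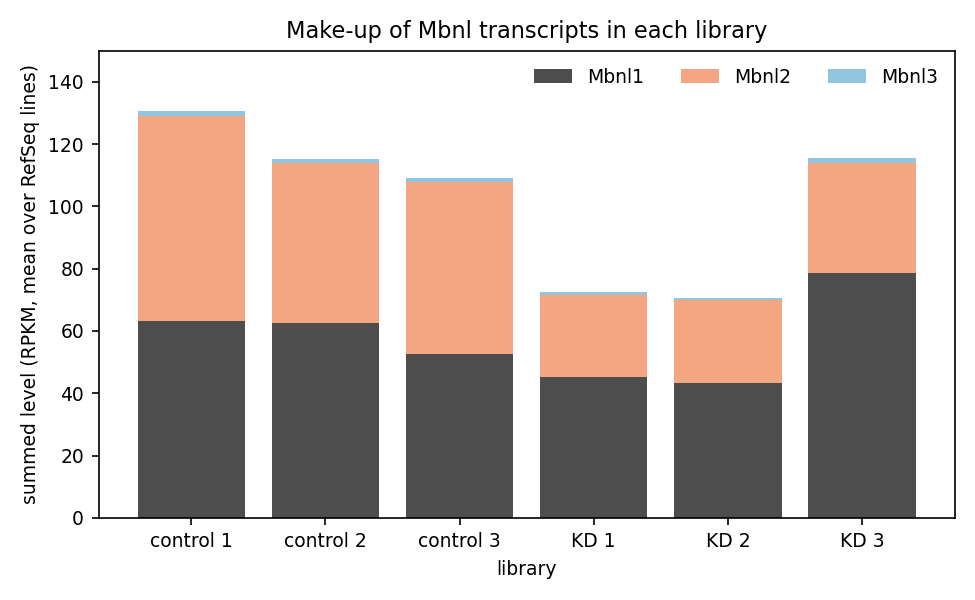
Level of *Mbnl1*, *Mbnl2* and *Mbnl3* (RPKM, mean over the RefSeq lines of each gene) stacked for each library. The *Mbnl2* part is smaller in the 3 KD libraries, at 26.4 to 35.5 RPKM, than in the 3 controls, at 51.5 to 66.0 RPKM, and KD replicate 3 stands out for its *Mbnl1* part.

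CELF proteins carry RNA recognition motifs and bind GU-rich sequences, in nuclear pre-mRNA and in mRNA. *Celf1* (chr2:90940382-91019497, plus strand) had 3.61, 3.07 and 3.84 RPKM after KD and 5.51, 4.92 and 5.32 RPKM in the controls. The groups were apart, with a log2 fold change of -0.47 ± 0.10 (SE, adjusted p = 0.0178). Its longest Ensembl line, ENSMUST00000068726 with 7851 bases, held between 2263 and 4233 reads per library. *Celf2* (chr2:6539694-7509563, minus strand) had 2.38, 1.75 and 2.98 RPKM after KD and 5.01, 3.96 and 4.29 RPKM in the controls, a log2 fold change of -0.70 ± 0.15 (adjusted p = 0.0166). Its highest KD library stayed below its lowest control. The call was lost for *Celf1* without KD replicate 2 (adjusted p = 0.0575), control replicate 1 (0.0837) or control replicate 3 (0.0821), and for *Celf2* without control replicate 1 (0.0751) or control replicate 3 (0.0671), each with the same direction. In RefSeq levels, both genes were alike in the controls, at 6.86 ± 0.53 and 7.19 ± 1.25 RPKM (SD, n = 3) with overlapping ranges. Their sum was 8.58, 6.91 and 9.98 RPKM after KD and 15.9, 12.4 and 13.8 RPKM in the controls, and *Celf2* made up 44.3% ± 5.32 and 51.0% ± 2.62 of it, with overlap between the groups.

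*Rbfox2* encodes the only RBFOX protein with more than traces of RNA in these cells, since *Rbfox3* was listed at 0 and *Rbfox1* did not exceed 0.00332 RPKM in any library. *Rbfox2* (chr15:77078990-77307004, minus strand) had 6.61, 6.53 and 8.04 RPKM after KD and 10.1, 11.4 and 11.2 RPKM in the controls. The groups were apart, with a log2 fold change of -0.56 ± 0.11 (adjusted p = 0.0149). Without KD replicate 1 or 2 or control replicate 1 or 3, the adjusted p rose to 0.0501, 0.0518, 0.0559 and 0.0732.

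*Qk* (chr17:10202601-10319854, minus strand) had 11.3, 9.40 and 13.5 RPKM after KD and 21.5, 13.4 and 16.1 RPKM in the controls. KD replicate 3 just reached control replicate 2, and the log2 fold change of -0.53 ± 0.19 did not pass (adjusted p = 0.0774). It passed from the RefSeq lines alone (-0.57, adjusted p = 0.0450) and without KD replicate 3 (-0.65, adjusted p = 0.0312). *Khdrbs1* (chr4:129703164-129742303, minus strand), which encodes Sam68, had 3.70, 1.94 and 2.24 RPKM after KD and 2.11, 1.69 and 1.88 RPKM in the controls. KD replicate 1 stood above the other 5 libraries, which overlapped, and the log2 fold change was 0.30 ± 0.17 (adjusted p = 0.227).

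In the table, the symbol *Rbm4* covers more than the gene. Of its 16 lines, 8 have an annotation, of which 5 belong to *Rbm4* and 3 to other genes, namely 2 to *Rbm14*, a coactivator gene 6.7 kb away on the same strand, and 1 to Gm21992, a readthrough gene. Neither has lines of its own in the table. All lines together gave 2.76, 2.48 and 2.89 RPKM after KD and 2.53, 2.89 and 2.505 RPKM in the controls (log2 fold change 0.03 ± 0.09, adjusted p = 0.847), and without the 3 lines of other genes the log2 fold change was 0.01 (adjusted p = 0.947), an alternative chosen after seeing the data. The RefSeq line of *Rbm4*, NM_009032, had 4.31, 4.04 and 4.59 RPKM after KD and 4.39, 4.71 and 4.53 RPKM in the controls. The RefSeq line of *Rbm14*, NM_019869, had 3.29, 2.67 and 3.13 RPKM and 2.62, 3.10 and 2.46 RPKM. Both lines overlapped between the groups, with the KD mean at 95.0% and 111% of the control mean.

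*Rbm4b* had 2.39, 2.36 and 2.45 RPKM after KD and 1.91, 2.11 and 2.06 RPKM in the controls. All KD libraries were above all controls, but the log2 fold change of 0.17 ± 0.08 did not pass (adjusted p = 0.174). Its RefSeq line, NM_025717, had 3.14, 3.39 and 2.89 RPKM after KD and 2.17, 2.38 and 2.64 RPKM in the controls. As a part of the summed RefSeq levels of both genes, *Rbm4b* made up 42.2%, 45.7% and 38.6% after KD and 33.1%, 33.6% and 36.9% in the controls. How reads from the identical coding bases shown above were shared between these lines is not given in the sources used here, so the level of each gene is uncertain.

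**Figure D3:**
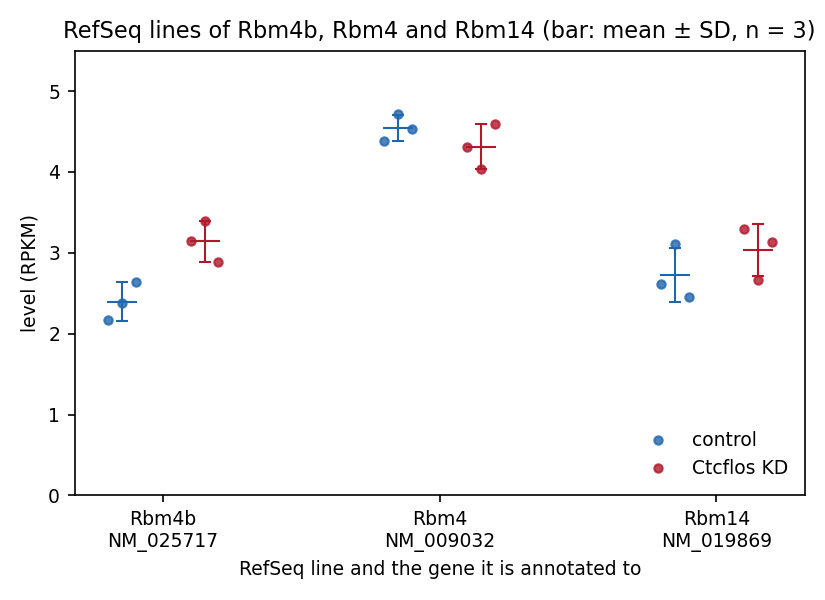
RPKM of the RefSeq lines of *Rbm4b*, *Rbm4* and *Rbm14*, the latter listed under *Rbm4* in the table, in each library (points), with mean and SD. KD (red) and control (blue) libraries are apart for *Rbm4b*, whose KD libraries start at 2.89 and whose controls end at 2.64 RPKM, and overlap for *Rbm4* and *Rbm14*.

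By the level of protein-coding RefSeq lines in the controls, counting NM_009032 alone for *Rbm4*, the order was *Mbnl1*, *Mbnl2*, *Qk* (22.3 ± 5.22 RPKM, SD), *Rbfox2* (11.3 ± 0.72), *Celf2*, *Celf1*, *Rbm4* (4.54 ± 0.16), *Khdrbs1* (3.75 ± 0.64), *Rbm4b* (2.40 ± 0.24) and *Mbnl3* (1.35 ± 0.22). Neighbours with overlapping control ranges were *Mbnl1* and *Mbnl2*, *Celf2* and *Celf1*, and *Rbm4* and *Khdrbs1*. After KD, the means of *Khdrbs1* (5.12 ± 1.85 RPKM), *Celf1* (4.68 ± 0.42), *Rbm4* (4.31 ± 0.28) and *Celf2* (3.81 ± 1.13) followed *Rbfox2*, and the ranges of these 4 genes overlapped, so that *Celf2* went from the fifth to the eighth mean. The places of the other 6 genes were as in the controls.

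Long genes were lower after KD across the table, which bears on the members' values. Of all tested genes with a known span, 45% of the 920 that span at least 100 kb were called lower, against 10.2% of the 8499 shorter ones, and the median log2 fold changes were -0.34 and 0.05. Of the members, *Mbnl1*, *Mbnl2*, *Celf2*, *Rbfox2* and *Qk* span 117.3 to 969.9 kb, and 3 of these 5 were called lower, with a median of -0.56. Of the 5 shorter members, which span 9.6 to 89.3 kb, only *Celf1* was called, and their median was 0.03. The part of gene span in the members' values was not tested.

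**Figure D4:**
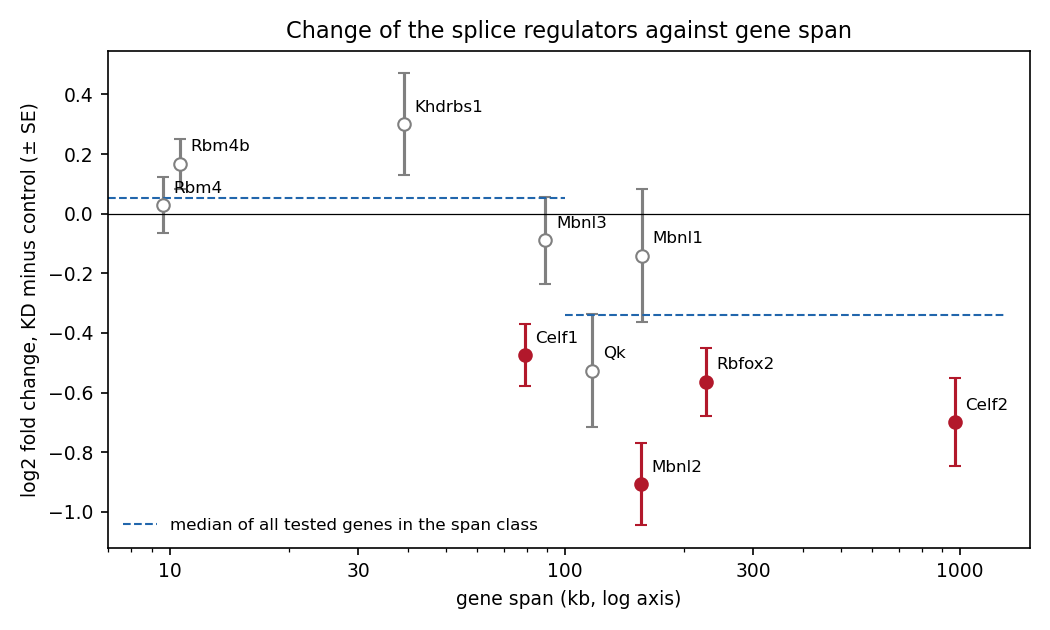
Log2 fold change of each splice regulator (KD minus control, bars ± SE) against the span of its gene in kb (log axis). Filled red points have an adjusted p under 0.05, open grey points do not, and dashed lines are the medians of all tested genes below and above 100 kb (0.05 and -0.34). *Mbnl2*, *Rbfox2*, *Celf2*, *Celf1*, *Qk*, *Mbnl3* and *Rbm4* lie below the line of their span class, and *Mbnl1*, *Khdrbs1* and *Rbm4b* above it.

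The make-up of the transcripts was described by the share of each line in the summed RPKM of its symbol. None of the 10 members was called for a change of shares, and nor was any of 10027 genes or 64643 lines tested (limma on log2 shares, Simes p per gene, 0% called). At an unadjusted p under 0.05 there were 1012 genes (10.1%), among them *Rbm4* and *Qk* as the only members. For *Rbm4* limma gave an unadjusted p of 0.00390 (adjusted p = 0.228), and for *Qk* an unadjusted p of 0.00958 (adjusted p = 0.301). With diffSplice from limma, 74 genes were called and again no member. The study tested reads that span splice junctions in its deep sequencing, and reported differential splicing of *Rbm4* and *Mbnl1* after KD. Shares of whole lines are another measure, and junctions were not tested here. Shares did not overlap between the groups for 23 of the 150 tested lines of the members (15.3%), where 14% of all tested lines did so. Of these 23 lines, 8 were of *Qk*, 6 of *Rbfox2*, 5 of *Rbm4*, 2 of *Rbm4b*, 1 of *Mbnl1* and 1 of *Celf2*, and lines of a gene share reads and so are not independent of each other.

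For *Qk*, the share of the QKI-5 line was higher and the shares of the QKI-6 and QKI-7 lines were lower after KD, none of which passed the correction over all lines. As a percentage of the 3 RefSeq lines, QKI-5 had 39.7, 39.2 and 38.0 after KD and 33.2, 35.7 and 34.5 in the controls. QKI-6 had 31.4, 31.9 and 32.4 after KD and 35.0, 33.8 and 34.1 in the controls, and QKI-7 had 28.9, 28.9 and 29.6 after KD and 31.8, 30.5 and 31.4 in the controls. In all 3 lines the groups were apart (exact permutation test, p = 0.1 each, the smallest possible). These are not 3 independent results, because the percentages are parts of the same sum. The ratio of the QKI-7 to the QKI-6 line was also nearly constant, at 0.901 to 0.921 over the 6 libraries. Whether the lines could have separated QKI-6 from QKI-7 was not tested. In the limma fit of the shares in all lines of the gene, the log2 share of QKI-5 differed by 0.14 ± 0.05 (SE, adjusted p = 0.465, 0.0331 unadjusted). That of QKI-6 differed by -0.14 ± 0.02 (adjusted p = 0.229, 0.00190 unadjusted) and that of QKI-7 by -0.13 ± 0.02 (adjusted p = 0.229, 0.00192 unadjusted). The RPKM of the QKI-5 line was at 74.2% of the control mean, and those of the QKI-6 and QKI-7 lines were at 60.7% and 60.9%. Of all *Qk* lines, the clone AK005169 had the largest mean share and AK161210 the largest shift, from 9.83% ± 0.65 to 11.3% ± 0.70 (SD, n = 3; unadjusted p = 0.0286, adjusted p = 0.445).

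**Figure D5:**
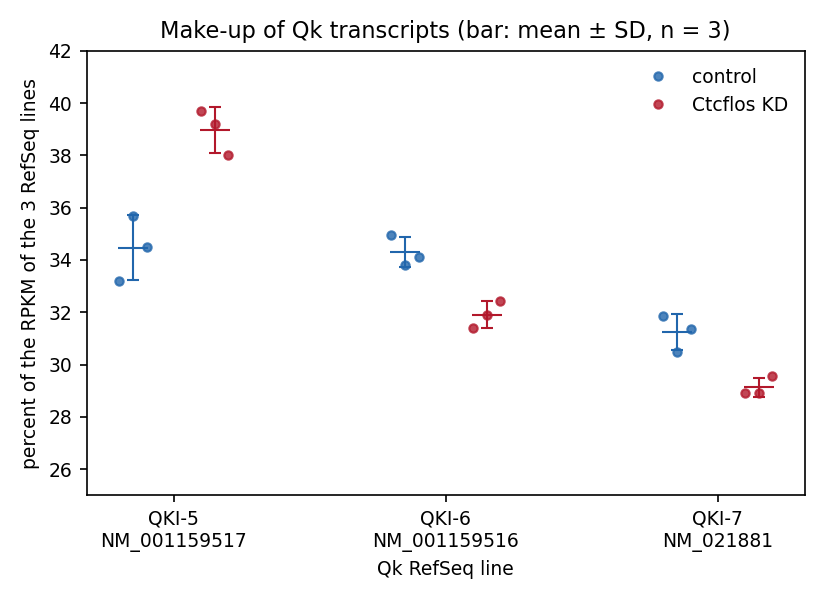
Percentage of each *Qk* RefSeq line in the RPKM of the 3 lines, in each library (points), with mean and SD. The axis starts at 25%. KD libraries (red) lie at 38.0-39.7% for QKI-5, above the controls (blue) at 33.2-35.7%, and below the controls for QKI-6 and QKI-7.

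For *Rbm4*, the largest shift was that of the clone AK044883, from 3.16%, 2.81% and 3.02% in the controls to 2.08%, 2.11% and 2.03% after KD. This was also the smallest p of all 150 lines (log2 share -0.49 ± 0.06 SE, unadjusted p = 0.00026, adjusted p = 0.140). NM_009032 had 10.8%, 10.2% and 11.3% of the symbol's sum in the controls and 9.78%, 10.2% and 9.93% after KD (adjusted p = 0.485, 0.0376 unadjusted), with every KD library just below every control. The line with the largest mean share was ENSMUST00000178615, whose groups overlapped. Leaving out the lines of *Rbm14* and Gm21992 gave an adjusted p of 0.152 for *Rbm4*.

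Shifts in the other members were of a like size. Among their RefSeq lines, NM_134163 of *Mbnl3* differed by -1.03 points and NM_025717 of *Rbm4b* by 0.860 points, with overlap between the groups in both (adjusted p = 0.663 and 0.722). All shifts of tested lines were between -1.14 and 1.03 percentage points outside *Qk*. In *Rbfox2*, AK077594 had the largest share and the largest shift, from 13.0% ± 0.16 to 14.1% ± 0.85 (unadjusted p = 0.0633), and 5 of its 6 RefSeq lines were lower in share without overlap, by at most 0.190 points. The largest shifts in *Rbm4b*, *Mbnl1*, *Mbnl2*, *Mbnl3*, *Celf1*, *Celf2* and *Khdrbs1* were those of AK004302 (-1.004 points), AK149405 (0.22), AK003316 (-0.80), AK040889 (-1.14), AK135030 (-0.59), AK139126 (-0.35) and AK146815 (-0.76). The lines with the largest mean share were AK142116 in *Rbm4b*, AK166108 in *Mbnl3*, AK033771 in *Celf1* and AK138189 in *Celf2*, and in *Mbnl1*, *Mbnl2* and *Khdrbs1* they were the lines just named.

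Shares of lines need not show every exon. The 2 RefSeq lines of *Mbnl2* differ in their coding sequence by a 54-base exon at chr14:120395712-120395765 (plus strand, GRCm38), present in NM_175341 and absent from NM_207515, which is shown in capitals because the ratio of both lines was 0.988 in all 6 libraries, equal to within 0.01%.
Mbnl2 exon: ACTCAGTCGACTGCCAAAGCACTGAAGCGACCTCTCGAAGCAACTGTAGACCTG
A ratio that is the same in every library means that both lines held reads in a fixed proportion. Whether reads fell on this exon, and how they would have been counted, is not known. The fixed ratio therefore cannot tell whether its inclusion differed between the groups. Of the 68 pairs of RefSeq lines within members, 5 had such a fixed ratio, 2 of them in *Rbfox2* and 1 each in *Mbnl1*, *Mbnl2* and *Celf1*. Many other pairs had a nearly fixed ratio. Over the 6 libraries it varied by at most 1.38% in *Celf2* and 1.78% in *Rbfox2*, against up to 33.1% in *Qk*. Whether the lines of such pairs could have moved further apart was not tested.

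Among 35 other splice regulators, 15 passed the filter, of which 3 were called higher and 1 lower (median log2 fold change 0.07). Of all genes tested, 11.5% were called higher and 12.4% lower (24% in all). The 3 that rose were *Ptbp1*, *Ptbp2* and *Ptbp3*, the polypyrimidine tract-binding proteins, which mostly repress exons. *Ptbp1* had 32.4, 26.4 and 23.2 RPKM after KD and 16.6, 18.0 and 17.8 RPKM in the controls (log2 fold change 0.61 ± 0.14, adjusted p = 0.0209). *Ptbp2* had 3.15, 2.27 and 2.69 against 1.71, 1.66 and 1.39 RPKM (0.51 ± 0.11, adjusted p = 0.0189), and *Ptbp3* had 24.2, 23.9 and 17.4 against 15.8, 12.7 and 14.02 RPKM (0.58 ± 0.16, adjusted p = 0.0325). *Rbpms*, a regulator known from smooth muscle, was lower (-0.44 ± 0.13, adjusted p = 0.0395). Without control replicate 1, or without control replicate 3, limma called none of the 15. The other 11 tested regulators had log2 fold changes of -0.30 (*Khdrbs3*) to 0.23 (*Elavl1*). Of 16 regulators on this list that could be tested for shares, none was called by limma, and 1 had an unadjusted p under 0.05, where 10.1% of all tested genes did.

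Of 28 genes known as splice targets of these or related regulators, 20 passed the filter, 7 were called lower and 3 higher, with a median log2 fold change of -0.20. The shares over all genes tested were 12.4% lower and 11.5% higher. Lower were *Map4k4* (-1.18 ± 0.21, adjusted p = 0.0104), *Macroh2a1*, listed as H2afy (-0.77 ± 0.12, adjusted p = 0.00728), *Itga6* (-0.56), *Mtor* (-0.45), *Mef2a* (-0.40), *Numb* (-0.38) and *Bin1* (-0.34). Higher were *Cd44* (0.51 ± 0.16, adjusted p = 0.0465), *Enah* (0.46 ± 0.09, adjusted p = 0.0154) and *Ptbp2*. None of the 20 that could be tested for shares was called for a change of shares. From junction reads, the study reported differential splicing of *Insr*, *Pparg* and *Mapk9*, which are on this list. An unadjusted p under 0.05 was found for 1 of them, where 10.1% of all tested genes had it. Only 1 target was called without control replicate 1, and only 1 without control replicate 3.

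The genes whose levels followed *Rbm4* most closely over the 6 libraries were 2310057M21Rik (Pearson r = 0.989), AK138181 (0.982) and AK036131 (0.982). For *Mbnl1* they were *Ccna2*, a cyclin (0.988), *Alcam* (0.981) and Gm17484 (0.969). They were picked as the highest r of all other tested genes, without a test, and with 6 libraries such maxima can arise by chance. The *Rbm4* level used here includes the lines of *Rbm14* and Gm21992. These values describe 6 libraries that differ in group and depth.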

How the data were processed

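Total RNA of 6 libraries (3 *Ctcflos* KD, 3 control) was sequenced by the authors on a HiSeq instrument with 150 bp paired-end reads from a stranded kit. The deposited table holds RPKM per accession, written with decimal commas. The study aligned reads to GRCm38 and used Gencode vM21 for splicing, but which tool made the RPKM table, and how reads that fit several lines were counted, is not given in the sources used here. From 168326 lines, 305 exact repeats were removed. Groups and replicate numbers were taken from the sample labels, which do not say whether replicates were separate cultures, so p-values measure the spread between these libraries.

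Gene levels, the mean RPKM over the lines of a symbol, were tested as log2(RPKM + 1) with limma 3.58.1 (trend, R 4.3.3) for genes with a mean of at least 1 RPKM, without covariates. Shares were tested as log2 of (RPKM + 0.1) over the gene's sum for lines with a mean of at least 1 RPKM, with Simes p-values per gene. Both used Benjamini-Hochberg adjustment over the whole table and a threshold of 0.05. Values outside these fits were compared by an exact two-sided permutation test. The scripts were tested on simulated data. No count test was run, since the table holds RPKM. Mapped reads per library were recovered from low values, of which 96.0-96.4% came out as whole reads (within 0.1). Sequences and positions were taken from Gencode vM21 (GRCm38), and coding sequences were aligned with Biopython 1.88.

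The members and gene lists were chosen with earlier results of these data known. Named were all members, of each the line with the largest share and with the largest shift and RefSeq lines, called genes of both lists, *Ctcflos*, and the 3 genes most like *Rbm4* and *Mbnl1*. Genes named beyond this rule (*Rbm14*, Gm21992, *Cd68* and other markers, *Khdrbs3*, *Elavl1*, *Msi2*, *Rbfox1* and *Rbfox3*) were chosen after their values were seen. Alternatives were another pseudocount, no filter, median-of-ratios scaling, the replicate number as a block, RefSeq lines alone, diffSplice, lines with at least 5% of a gene, and leaving out each library; leaving out lines annotated to other genes was added after seeing the data.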

Additional observations from a re-analysis of the deposited data

How the results depend on the processing

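*Mbnl2* was lower and called under all 12 alternatives, with log2 fold changes of -1.02 to -0.85. *Celf1*, *Celf2* and *Rbfox2* were lower under all 12, at -0.57 to -0.40, -0.90 to -0.56 and -0.65 to -0.52. *Celf2* was not called without the filter on low values (adjusted p = 0.0509). *Rbm4b* stayed above 0 (0.14 to 0.29, lowest adjusted p = 0.0570) and *Khdrbs1* too (0.10 to 0.44, lowest adjusted p = 0.132). With 1 library left out, *Rbm4* ranged from -0.0073 (without KD replicate 3, a turned sign) to 0.076. *Mbnl1* ranged from -0.408 (without KD replicate 3) to 0.010 and *Mbnl3* from -0.226 to 0.030, with the sign turned without KD replicate 2 in both. The number of members called ranged from 1 to 6 when 1 library was left out, with 1, *Mbnl2*, left without control replicate 1 or 3 and 6 without KD replicate 3.

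Over all genes, 2803 were called for abundance, against 1807 without the filter on low values, 1671 with the replicate number as a block, and 423 to 4784 with 1 library left out (4784 without KD replicate 3). For shares, 0 genes were called, against 91 with a pseudocount of 1, 1 without the filter, 74 with diffSplice, and 0 to 1 with 1 library left out, and no member was called under any of these. Of the other regulators, 4 were called, against 1 without the filter, 2 with the block and 0 to 5 with 1 library left out. The 1 called by limma without the filter was *Msi2*, at 37.8% of the control mean (log2 fold change -0.66, adjusted p = 0.0320). Its mean lay just under the filter. None of the 4 passed without the filter, with adjusted p-values from limma of 0.0504 (*Ptbp1*) to 0.0964 (*Rbpms*). Of the splice targets, 10 were called, against 3 without the filter, 6 with the block and 1 to 13 with 1 library left out. The deviations of same-numbered libraries had correlations of 0.287, -0.288 and -0.418 for replicates 1, 2 and 3. With 3 libraries a group, these values cannot decide whether the numbers pair the libraries. KD replicate 3 and control replicate 3 had fewer mapped reads (60772688 and 62883062) than every other library (75081351 to 79242802). Levels near 1 RPKM, such as those of *Mbnl3*, rest on few reads (97 to 228 in its longest Ensembl line), and 3 libraries a group limit what can be called.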
